A study of Mus musculus with 10 samples.

Results

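The apolipoprotein genes taken here were the 10 genes Apoa1, Apoa2, Apoa4, Apoa5, Apob, Apoc1, Apoc2, Apoc3, Apoe and Apom, chosen by name from 19414 genes measured in liver. All 10 had 1 entry each, and all 10 entered the test, which took genes averaging 1 CPM or more over the mice (CPM being the reads of a gene per 1000000 reads counted in that library). Liver RNA came from 10 female HET3 mice, a genetically heterogeneous stock, with 5 on the Longevity diet (named LD_ and a mouse number) and 5 on the standard diet (named SD_ and a mouse number), each kept on its diet over 5 months. Their age is labelled as 25 months, and the labels can be read with feeding beginning or finishing at that age, and the title of the series describes the Longevity diet as supplemented with methionine. The labels treat each mouse as 1 sample, and they give no cage, cohort or collection time. In the values below SD alone stands for the standard deviation.

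Apolipoproteins are the protein part of the lipoprotein particles that carry lipid in blood, and the liver is their main source together with the intestine. ApoB forms the frame of very low density lipoprotein, and apoA-I and apoA-II are the main proteins of high density lipoprotein. Others steer the fate of a particle, since apoC-II activates lipoprotein lipase, apoC-III inhibits it, apoA-V favours triglyceride clearance and apoE is a ligand for receptors that take particles up.

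With all mice included, 0 of the 10 apolipoprotein genes differed between the diets by limma at an adjusted p under 0.05, where 1.89% of the 13157 genes tested did (0.661% higher and 1.23% lower on the Longevity diet). These were 87 higher and 162 lower genes, against 151 higher and 138 lower with median-of-ratios scaling. The values of the diets overlapped for all 10, while 5.5% of all genes tested showed no overlap. At an unadjusted p under 0.05 there were 3 of 10 (Apoc3, Apoa4 and Apoa1), against 17.5% of all genes tested. Without LD_405 there were 2 of 10, against 18.8%. Apoc3 and Apoc1 (unadjusted p = 0.0118) were then under 0.05, while Apoa4 (0.124) and Apoa1 (0.122) were not. The median log2 change of the 10 genes was 0.15, Longevity over standard diet, and that of all genes was -0.11. Apoc3 stood lowest of the 10 in its change, 1.76-fold lower on the Longevity diet, and Apoa4 highest, 1.99-fold higher. Apoc3 passed the threshold when mouse LD_405 was left out (1 of 10 genes, against 2.88% of all genes). Apoc3 and Apoc1 passed it in a fit corrected for transcript length (2 of 10, against 3.31%) and in a fit with a weight per library (2 of 10, both lower, against 6.12% in either direction and 3.62% lower).

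The libraries held an estimated 29.9 ± 6.47 M reads (M, 1000000) on the Longevity diet and 42.5 ± 4.35 M on the standard diet (mean ± SD, n = 5 mice each, two-sided exact permutation p = 0.0159), and 3 reads corresponded to 0.121 CPM at the lowest depth of 24.7 M, far under every value of the 10 genes. Fgf21, the hormone named in the series title, lay between 47.8 and 178 CPM on the Longevity diet and between 5.33 and 21.2 CPM on the standard diet, without overlap. The summed CPM of 7 hepatocyte markers was 135824 to 186247 on the Longevity diet and 87938 to 138398 on the standard diet. Most of this sum was albumin, at 110504 to 160835 CPM on the Longevity diet and 62598 to 112308 CPM on the standard diet. The median log2 change of the 7 markers was 0.02. Of these 7 markers Cps1, a urea cycle enzyme, fell (adjusted p = 0.0376), as did Pdgfrb of the stellate list (adjusted p = 0.0290) and S100a8 of the neutrophil list (adjusted p = 0.0456). They were 1 of 7, 1 of 9 and 1 of 4 markers tested, where 1.23% of all genes were lower, and the other lists had 0. S100a8 was at 0.179 to 0.637 CPM on the Longevity diet. On the standard diet it was 24.6 in SD_403, 34.6 in SD_646, 1.80 in SD_500, 3.55 in SD_501 and 0.826 in SD_502. Sums over 9 stellate cell and fibroblast markers (198 to 290.3 CPM on the Longevity diet and 315 to 486 CPM on the standard diet) and over 7 sinusoidal endothelial markers (89.5 to 179 CPM on the Longevity diet and 211 to 284 CPM on the standard diet) did not overlap. Much of the stellate sum was Dcn, which overlapped, at 90.9 to 154.6 CPM on the Longevity diet and 144.9 to 252.8 CPM on the standard diet. A background share for such sums was not computed. Sums over 12 Kupffer cell and macrophage markers overlapped, at 288 to 921 CPM on the Longevity diet and 465 to 1020.0 CPM on the standard diet. So did sums over 5 cholangiocyte markers (26.4 to 46.4 CPM on the Longevity diet and 26.8 to 58.8 CPM on the standard diet) and over 6 neutrophil markers (0.687 to 3.00 CPM on the Longevity diet and 2.38 to 104 CPM on the standard diet). Sums over 8 T, NK and B cell markers were 2.00 to 24.6 CPM on the Longevity diet and 15.4 to 35.8 CPM on the standard diet. In whole liver, fewer cells of a type and less RNA per cell cannot be told apart, and the part of cell makeup in the differences below was not tested.

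One library, LD_405, was the most extreme in several measures, though an outlier rule did not flag it. The 10 genes together held 11.7% of all reads in LD_405, against 4.90% to 7.32% in LD_406, LD_442, LD_513 and LD_515 and 4.70% to 7.63% on the standard diet. LD_405 was the highest of all 10 mice in Apoa1, Apoa2, Apoa4 and Apoe, and the lowest in Apob, whose mRNA is the longest of the 10. For each library the slope of its log2 deviation from the mean of all mice was taken over log2 transcript length. This slope was -0.40 per doubling of length in LD_405 (short transcripts high), 0.28 in SD_502 (long transcripts high) and -0.12 to 0.17 in the other 8 mice. The slopes averaged -0.0445 ± 0.230 on the Longevity diet and 0.0445 ± 0.155 on the standard diet (exact permutation p = 0.532). When limma estimated a weight for each library from its spread, LD_405 received 0.192 and the other 9 received 0.684 to 2.91. Dixon's outlier rule compares the gap beside an extreme value with the range, here at a cutoff of 0.71. Applied within each diet to the gene levels, their summed share, the length slope and some ratios, it flagged 0 of 32 sets of values. The log2 changes below are also given without LD_405 and with the length slope of every library removed, a correction chosen after seeing the data.

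**Figure D1:**
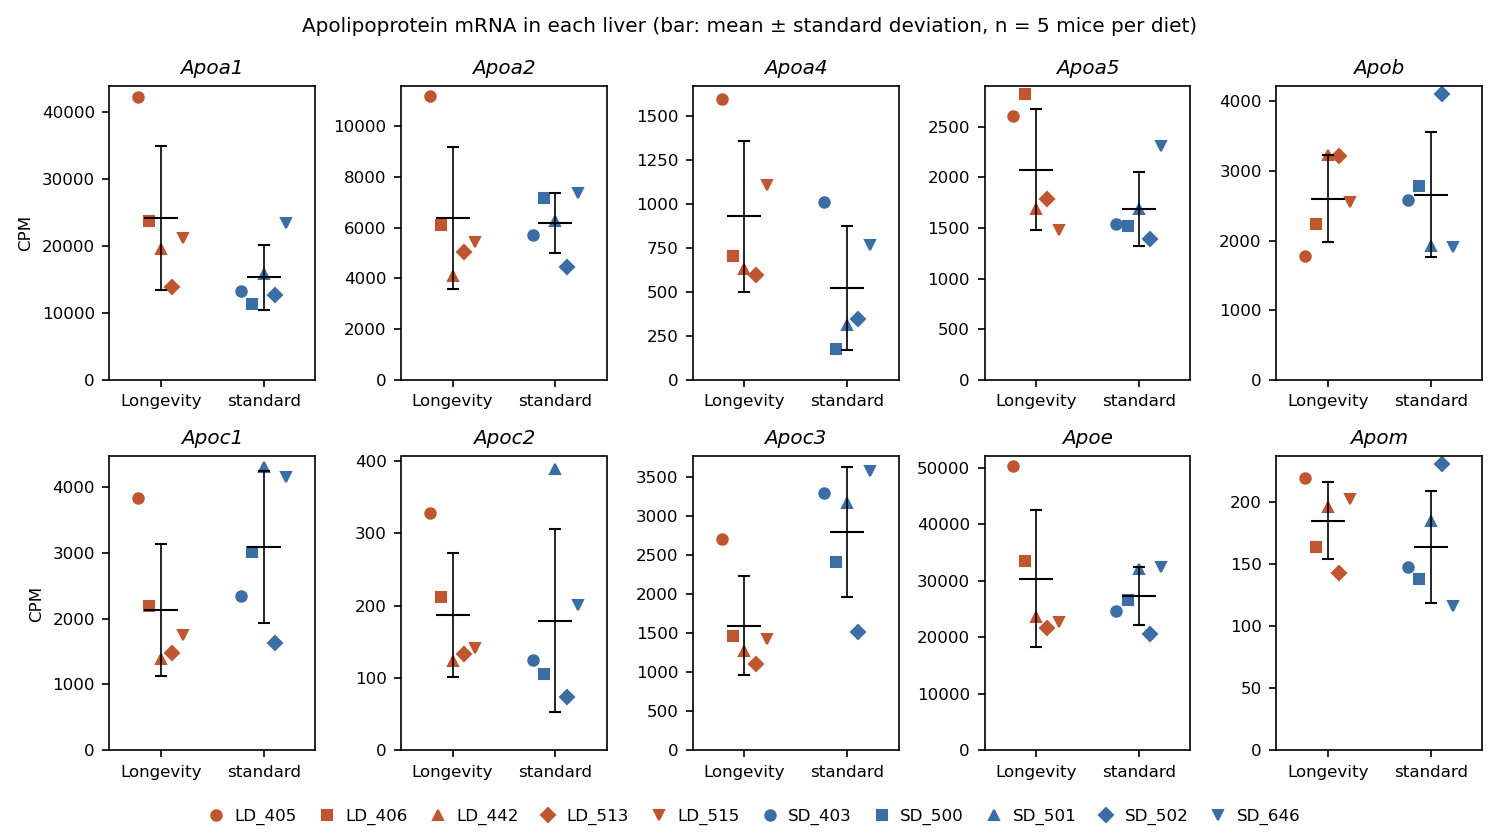
CPM of each apolipoprotein gene (vertical axes from 0) in every liver, with the 5 Longevity diet mice on the left and the 5 standard diet mice on the right of each panel and bars for the mean and standard deviation. The values of the diets overlap for all 10 genes, and LD_405 (circle, left) is the highest mouse for Apoa1, Apoa2, Apoa4 and Apoe.

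Per kilobase of transcript, both diets gave the same order of mean levels. Apoe led with 27245 ± 10890 CPM per kb on the Longevity diet and 24470 ± 4562 on the standard diet. Apoa1 followed with 23293 ± 10389 CPM per kb on the Longevity diet and 14758 ± 4648 on the standard diet. Apoa2 had 13264 ± 5806 CPM per kb on the Longevity diet and 12856 ± 2459 on the standard diet. The order then ran through Apoc1, Apoc3, Apoa5, Apoa4, Apoc2 and Apob to Apom, the lowest at 182 ± 30.6 CPM per kb on the Longevity diet and 161 ± 44.4 on the standard diet. The intervals of 1 SD overlapped on both diets between Apoa1 and Apoa2, between Apoc1 and Apoc3, and among Apoa4, Apoc2, Apob and Apom taken as neighbours, and on the Longevity diet also between Apoe and Apoa1. The transcript lengths behind these levels were 432 bases for Apoc1 to 13934 bases for Apob.

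Apoc3, one of the genes that act on lipoprotein lipase, had the smallest p of the 10. It lies at chr9:46144231-46146934 on mm39 (minus strand) and encodes the inhibitor of the lipase, which also slows the uptake of triglyceride-rich particles. Its CPM was 2706 in LD_405, 1466 in LD_406, 1278 in LD_442, 1110 in LD_513 and 1431 in LD_515 on the Longevity diet, against 3300 in SD_403, 2409 in SD_500, 3175 in SD_501, 1517 in SD_502 and 3581 in SD_646 on the standard diet. LD_405 lay above 2 mice of the standard diet, while the other 4 Longevity diet mice (1110 to 1466 CPM) lay below all 5 standard diet mice (1517 to 3581 CPM). The means were 1598 ± 635 CPM on the Longevity diet and 2796 ± 837 CPM on the standard diet (log2 change -0.82, SE 0.28, 95% CI -1.41 to -0.23, adjusted p = 0.146).

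Without LD_405, Apoc3 fell by 1.03 on the log2 scale (SE 0.24, limma adjusted p = 0.0378), with a mean of 1321 ± 163 CPM in the remaining 4 mice. In that fit 1 of the 10 genes was lower, where 1.73% of all genes were, and 1 of the 10 showed no overlap between diets, where 8.36% of all genes showed none. With the length slopes removed, Apoc3 fell by 1.01 (SE 0.15, limma adjusted p = 0.00422). Over all 24 alternative settings the log2 change ran from -1.03 to -0.70 and the adjusted p from 0.00422 to 0.288, and 3 settings passed the threshold.

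Apoc2 encodes the activator of the same lipase and Apoa5 a protein that lowers plasma triglyceride by favouring lipolysis. Apoc2 spanned 123 to 327 CPM on the Longevity diet and 73.8 to 389 CPM on the standard diet (log2 change 0.22, SE 0.40, 95% CI -0.65 to 1.09, adjusted p = 0.813). The highest and the lowest of the 10 mice, SD_501 and SD_502, were both on the standard diet. Apoc2 overlaps, on the same strand, the gene Apoc2l, which in turn overlaps Apoc4, so reads of these genes can be shared. Apoa5 spanned 1484 to 2829 CPM on the Longevity diet and 1389 to 2315 CPM on the standard diet (log2 change 0.27, SE 0.21, 95% CI -0.19 to 0.73, adjusted p = 0.532), with LD_405 and LD_406 above the other 8 mice. The log2 change of Apoc2 was -0.01 without LD_405 (adjusted p = 0.991) and 0.05 with the length slopes removed (adjusted p = 0.942). For Apoa5 it was 0.18 without LD_405 (adjusted p = 0.70) and 0.22 with the length slopes removed (adjusted p = 0.508). Neither gene passed the threshold in any of the 24 alternative settings.

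Apoe encodes the receptor ligand, which macrophages also make, and Apoc1 a small protein that hinders particle uptake. Apoe CPM was 50421 in LD_405, 33532 in LD_406, 23614 in LD_442, 21655 in LD_513 and 22807 in LD_515 on the Longevity diet, against 24633 in SD_403, 26656 in SD_500, 32134 in SD_501, 20572 in SD_502 and 32548 in SD_646 on the standard diet. LD_405 lay far above the rest, LD_406 just above the highest standard diet mouse, and the other 3 Longevity diet mice within the standard diet range. The means were 30406 ± 12153 CPM on the Longevity diet and 27309 ± 5092 CPM on the standard diet (log2 change 0.10, SE 0.24, 95% CI -0.41 to 0.61, adjusted p = 0.863). The log2 change was -0.11 without LD_405 (adjusted p = 0.816) and -0.00070 with the length slopes removed (adjusted p = 0.999). The CPM of Apoc1, the next gene of the same cluster, was 3826 in LD_405, 2186 in LD_406, 1391 in LD_442, 1480 in LD_513 and 1750 in LD_515 on the Longevity diet, against 2338 in SD_403, 3013 in SD_500, 4300 in SD_501, 1636 in SD_502 and 4144 in SD_646 on the standard diet. LD_405 lay among the high mice of the standard diet, and SD_502 among the 4 other mice of the Longevity diet.

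The means of Apoc1 were 2127 ± 999 CPM on the Longevity diet and 3086 ± 1147 CPM on the standard diet (log2 change -0.55, SE 0.31, 95% CI -1.23 to 0.12, adjusted p = 0.386). With the length slopes removed Apoc1 fell by 0.77 on the log2 scale (SE 0.14, limma adjusted p = 0.0104), and 2 of the 10 genes were then lower, where 1.99% of all genes were. Leaving out LD_405 gave -0.79 (adjusted p = 0.139), short of the threshold. Over the 24 settings the log2 change of Apoc1 ran from -0.82 to -0.35 and the adjusted p from 0.0104 to 0.619.

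Among the genes of high density lipoprotein, Apoa1 encodes the protein on which the particle is built. Apoa1 CPM was 42220 in LD_405, 23742 in LD_406, 19495 in LD_442, 13883 in LD_513 and 21201 in LD_515 on the Longevity diet, against 13188 in SD_403, 11341 in SD_500, 15763 in SD_501, 12690 in SD_502 and 23388 in SD_646 on the standard diet. The 5 Longevity diet values began at 13883 CPM, which 3 of the 5 standard diet mice did not reach, and SD_646 lay above all Longevity diet mice except LD_405 and LD_406. The means were 24108 ± 10753 CPM on the Longevity diet and 15274 ± 4811 CPM on the standard diet (log2 change 0.61, SE 0.28, 95% CI 0.01 to 1.20, adjusted p = 0.274). The log2 change was 0.38 without LD_405 (adjusted p = 0.398) and 0.50 with the length slopes removed (adjusted p = 0.168), and over the 24 settings it ran from 0.38 to 0.78 with adjusted p of 0.162 to 0.500.

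Apoa2, the second protein of these particles, spanned 4114 to 11206 CPM on the Longevity diet and 4449 to 7351 CPM on the standard diet (log2 change -0.02, SE 0.25, 95% CI -0.56 to 0.51, adjusted p = 0.971), and its sign turned in 8 of 24 settings. Its log2 change was -0.25 without LD_405 (adjusted p = 0.517) and -0.23 with the length slopes removed (adjusted p = 0.387). Apoa4 is made by intestine and liver in rodents and is known to follow lipid load. Its CPM was 1599 in LD_405, 707 in LD_406, 632 in LD_442, 598 in LD_513 and 1110 in LD_515 on the Longevity diet, against 1014 in SD_403, 178 in SD_500, 309.7 in SD_501, 349 in SD_502 and 768 in SD_646 on the standard diet. The 3 lowest mice of the 10 were all on the standard diet, and SD_403 and SD_646 lay within the Longevity diet range. The means were 929 ± 427 CPM on the Longevity diet and 524 ± 352 CPM on the standard diet (log2 change 1.00, SE 0.43, 95% CI 0.07 to 1.92, adjusted p = 0.252). The log2 change of Apoa4 was 0.77 without LD_405 (adjusted p = 0.401) and 0.96 with the length slopes removed (adjusted p = 0.241). It passed the threshold in 0 of 24 settings, with adjusted p of 0.179 to 0.451. Of the intestinal markers, Alpi was at 0 in all 5 Longevity diet mice and at most 1.70 CPM on the standard diet, and Vil1 was at most 1.19 CPM on the Longevity diet and 2.48 CPM on the standard diet. Fabp2 spanned 73.8 to 201 CPM on the Longevity diet and 69.9 to 102 CPM on the standard diet, and Slc5a1 2.64 to 9.04 CPM on the Longevity diet and 1.35 to 3.24 CPM on the standard diet. The other 4 of the 8 intestinal markers listed (Sis, Lct, Cdh17 and Cdx2) had no entry among the genes measured. The part of intestinal RNA in the Apoa4 values was not tested. Apom, the carrier of sphingosine-1-phosphate on these particles, spanned 142 to 219 CPM on the Longevity diet and 116 to 231 CPM on the standard diet (log2 change 0.20, SE 0.21, 95% CI -0.25 to 0.65, adjusted p = 0.649). For Apom the log2 change was 0.14 without LD_405 (adjusted p = 0.768) and 0.09 with the length slopes removed (adjusted p = 0.855).

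Apob, the frame protein of very low density lipoprotein, spanned 1778 to 3228 CPM on the Longevity diet and 1901 to 4103 CPM on the standard diet (log2 change -0.01, SE 0.24, 95% CI -0.52 to 0.51, adjusted p = 0.991). Its highest mouse was SD_502 and its lowest LD_405, the mice with the highest and the lowest length slope. For Apob the log2 change was 0.12 without LD_405 (adjusted p = 0.822) and 0.22 with the length slopes removed (adjusted p = 0.402). The sign of Apob turned in 11 of 24 settings, with log2 changes of -0.11 to 0.22.

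**Figure D2:**
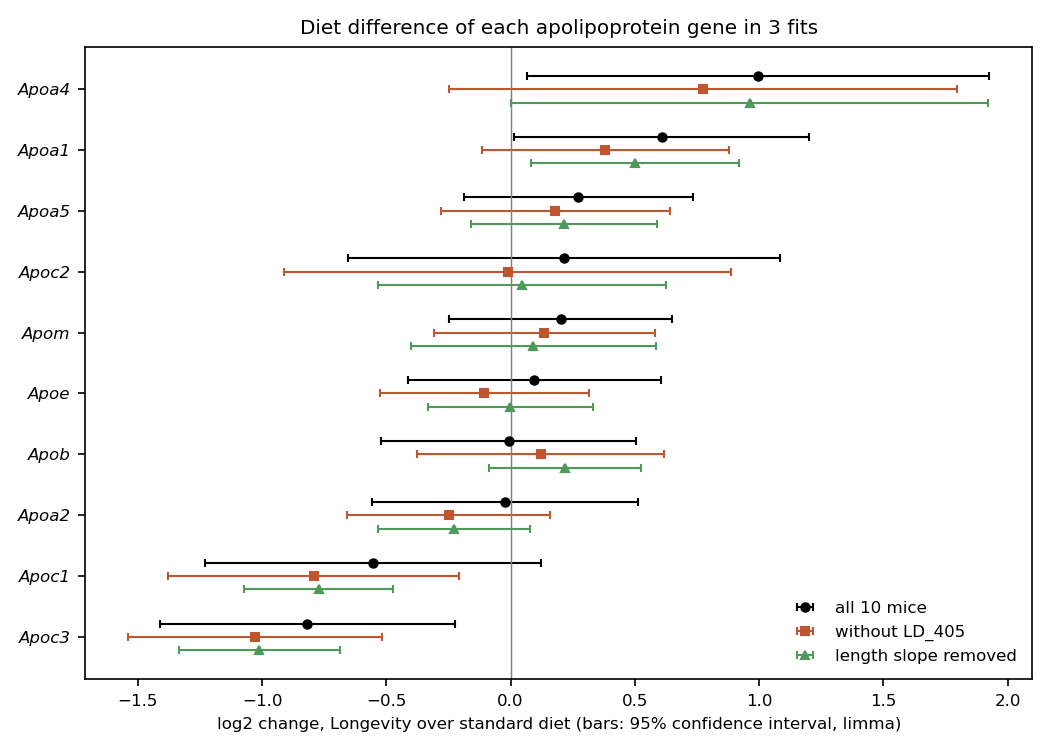
Log2 change of each gene (horizontal axis, Longevity over standard diet) with its 95% confidence interval from limma, for all 10 mice (black circles), without LD_405 (orange squares) and with the length slopes removed (green triangles). Apoc3 and Apoc1 lie lowest in all 3 fits, Apoc3 at -0.82, -1.03 and -1.01, and the intervals of Apoa5, Apoc2, Apom, Apoe, Apob and Apoa2 include 0 in all 3.

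Within the diets most of the genes varied together. After the mean of each diet was removed from the log2 values, 30 of the 45 pairs had a positive Pearson r over the 10 mice, with a median r of 0.61, and 11 pairs had r over 0.8. Apoe and Apoc1 gave the highest r, 0.94, followed by Apoa2 and Apoe with 0.90. Apob went the other way, with r of -0.95 with Apoc1 and -0.92 with Apoc3, and 8 of the 15 negative pairs included it. The length slope of the libraries moved with these levels, with r of -0.97 for Apoc1, -0.97 for Apoe, -0.91 for Apoc3 and 0.94 for Apob. The r was nearer 0 for Apoa4, with r of -0.42 (-0.18 without LD_405), and for Apom, with r of 0.04 (0.42 without LD_405). Without LD_405 the median r over the 45 pairs was 0.48. These values describe 10 libraries of unequal depth that are scaled to the same total, and no test was made of them. The r over all pairs of genes was not computed, so the counts have no background share. The genes nearest to Apoc3 among all tested, Dnase2a, Fcf1 and Mrps21, had r of 0.98 with it, above every pair of the 10.

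**Figure D3:**
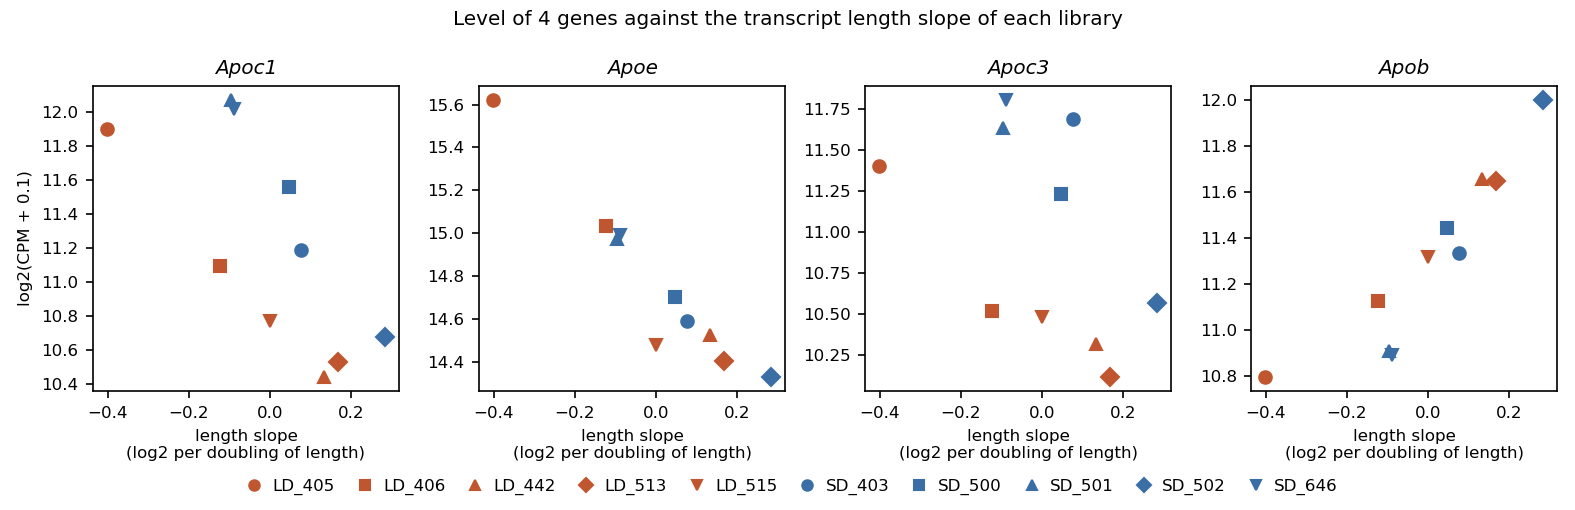
Level of Apoc1, Apoe, Apoc3 and Apob (vertical axes, log2(CPM + 0.1), not starting at 0) against the length slope of each library (horizontal axis, log2 per doubling of transcript length), with 1 point per mouse, orange for the Longevity diet and blue for the standard diet. Apoe and Apob line up along the slope with both diets mixed, while for Apoc3 the 4 Longevity diet mice other than LD_405 lie below all standard diet mice.

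Ratios between genes of 1 library do not change when all values of that library are multiplied by a single factor. Quantile normalization is not such a factor and can change them. The ratios also keep the length slope where transcripts differ in length (526 bases for Apoc3 and 1035 for Apoa1). Of the 45 ratios among the 10 genes, 8 (17.8%) did not overlap between the diets, and all 8 contained Apoc3 (5 ratios) or Apoc1 (3 ratios). Among the 1223 genes that averaged 100 CPM or more, 11.1% of all pairs did not overlap, and among all genes tested 5.98%. Without LD_405 the same 8 ratios did not overlap, but so did not 16.2% of the pairs of genes of at least 100 CPM, close to the share among the apolipoproteins. The ratios share genes and are a description, with no test. Some ratios were planned before the ratios were computed, but with earlier results of these data known. Of these, Apoa5 over Apoc3 and Apoe over Apoc1 did not overlap, with gaps between the diets of 0.072 and 0.052 on the log2 scale. Apoa4 over Apoa1, Apoa2 over Apoa1, Apob over Apoa1 and Apoc3 over Apoc2 did overlap. The ratios of Apoc3 to Apoa4, Apoa1 and Apoe given below were not planned and were picked from the 45 after the values were seen.

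The widest shift lay between the neighbours Apoa4 and Apoc3, with 0.482 to 0.776 reads of Apoa4 per read of Apoc3 on the Longevity diet and 0.0741 to 0.307 on the standard diet. The next widest without overlap was that of Apoc3 relative to Apoa1, its neighbour on the other side. There were 6.41 in LD_405, 6.18 in LD_406, 6.55 in LD_442, 8.00 in LD_513 and 6.75 in LD_515 reads of Apoc3 per 100 reads of Apoa1 on the Longevity diet, against 25.0 in SD_403, 21.2 in SD_500, 20.1 in SD_501, 12.0 in SD_502 and 15.3 in SD_646 on the standard diet. The means were 6.78 ± 0.713 on the Longevity diet and 18.7 ± 5.14 on the standard diet (2.69-fold lower by geometric means), and LD_405 lay within the range of the other Longevity diet mice. Apoc3 per 100 reads of Apoe was 4.37 to 6.27 on the Longevity diet and 7.37 to 13.4 on the standard diet. Apoc1 per 100 reads of Apoe averaged 6.90 ± 0.748 on the Longevity diet and 11.0 ± 2.25 on the standard diet, with 7.67 in LD_515 next to 7.95 in SD_502. Against Apoa5, the counterpart of Apoc3 in triglyceride clearance, Apoc3 held 51.8 to 104 reads per 100 on the Longevity diet and 109 to 215 on the standard diet. Against Apoc2, the activator of the lipase, the ratio of Apoc3 overlapped, at 6.92 to 10.4 reads of Apoc3 per read of Apoc2 on the Longevity diet and 8.16 to 26.3 on the standard diet.

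**Figure D4:**
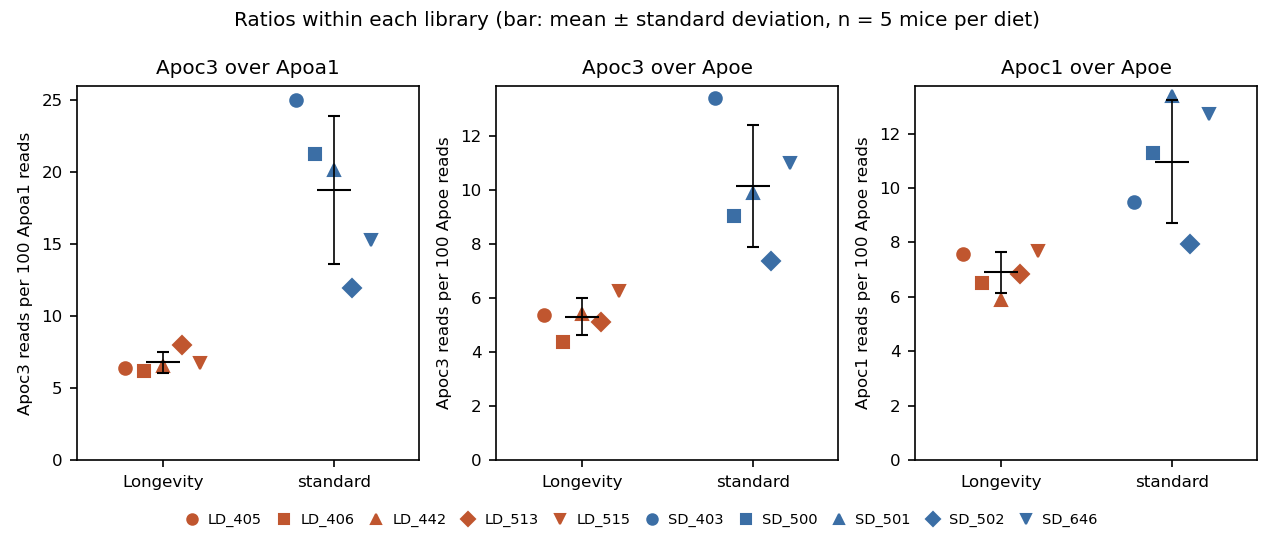
Reads of Apoc3 per 100 reads of Apoa1, Apoc3 per 100 reads of Apoe and Apoc1 per 100 reads of Apoe (vertical axes from 0) in each liver, with the Longevity diet on the left, the standard diet on the right and bars for the mean and standard deviation. No panel overlaps, and the 5 Longevity diet mice lie between 6.18 and 8.00 for Apoc3 over Apoa1 while the standard diet mice lie between 12.0 and 25.0. The Apoc3 ratios shown were picked after the values were seen.

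Of the 10 genes 7 lie in a pair of clusters. On chromosome 9, Apoa1 (chr9:46139878-46141764, plus strand), Apoc3 (minus strand), Apoa4 (chr9:46151994-46154757, plus strand) and Apoa5 (chr9:46179931-46183217, plus strand) follow each other on mm39, with 2.47 kb between Apoa1 and Apoc3, 5.06 kb between Apoc3 and Apoa4 and 25.2 kb between Apoa4 and Apoa5. The log2 changes in that order were 0.61, -0.82, 1.00 and 0.27. Apoc3 was the only one of the 4 with a negative value. The gene Gm47528 overlaps Apoa4 on the opposite strand, and the strandedness of the libraries is not stated, so that reads of both cannot be told apart. Its level was 3.25 CPM on the Longevity diet and 1.31 CPM on the standard diet (adjusted p = 0.224). Zpr1, which starts 1145 bases beyond Apoa5, had a log2 change of 0.27 (adjusted p = 0.499) and Bud13 one of 0.17 (adjusted p = 0.803).

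On chromosome 7, all on the minus strand, lie Apoc2 (chr7:19405504-19411866), Apoc4, Apoc1 (chr7:19423406-19426585) and Apoe (chr7:19430034-19433113), with 3.45 kb between Apoc1 and Apoe. Apoc4 stood at 884 CPM on the Longevity diet and 904 CPM on the standard diet (log2 change -0.06, adjusted p = 0.940), and Apoc2l had a log2 change of -0.38 (adjusted p = 0.591). Tomm40, which encodes the pore of the mitochondrial import complex and lies 2125 bases beyond Apoe, was at 57.0 CPM on the Longevity diet and 34.2 CPM on the standard diet (log2 change 0.67, adjusted p = 0.143), and Clptm1 on the other side had a log2 change of 0.16 (adjusted p = 0.623). Other genes were taken if their lower coordinate lay within 100 kb of a cluster, so a gene reaching in from further below was left out. Of those tested, 0 of 3 on chromosome 9 and 0 of 9 on chromosome 7 passed the threshold (limma, 1.89% of all genes). Apoa2 (chr1:171052623-171053948, plus strand), Apob (chr12:8027648-8066835, plus strand) and Apom (chr17:35347973-35351026, minus strand) lie on chromosomes 1, 12 and 17.

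Promoter windows were taken from the RefSeq table on GRCm38.p6, which held 8 of the 10 genes in 12 windows, without Apoc1 and Apoc3. The 250 bases before the start are shown for Apoa1, Apoa4 and Apoa5, which lie in 1 cluster with Apoc3, and for Apoc2, whose product acts on the same lipase. Capitals mark matches to TATAAA and, in Apoc2, to the elements AGGNCA and AGGTCA spaced by 1 base, the layout known for binding of nuclear receptor pairs and HNF4A. The windows of Apoa1 and Apoa4 held no match to any motif searched.
Apoa1 (chr9:46228380-46228629, plus strand): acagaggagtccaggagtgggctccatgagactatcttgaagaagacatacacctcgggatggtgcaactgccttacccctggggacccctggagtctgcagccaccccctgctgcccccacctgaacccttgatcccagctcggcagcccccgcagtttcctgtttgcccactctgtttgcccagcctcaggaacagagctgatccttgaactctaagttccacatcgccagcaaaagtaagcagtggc
Apoa4 (chr9:46240594-46240843, plus strand): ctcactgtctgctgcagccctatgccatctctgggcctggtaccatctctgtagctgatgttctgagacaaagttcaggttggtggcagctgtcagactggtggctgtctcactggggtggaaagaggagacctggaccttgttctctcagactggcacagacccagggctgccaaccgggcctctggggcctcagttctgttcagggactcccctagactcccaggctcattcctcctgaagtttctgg
Apoa5 (chr9:46268358-46268607, plus strand): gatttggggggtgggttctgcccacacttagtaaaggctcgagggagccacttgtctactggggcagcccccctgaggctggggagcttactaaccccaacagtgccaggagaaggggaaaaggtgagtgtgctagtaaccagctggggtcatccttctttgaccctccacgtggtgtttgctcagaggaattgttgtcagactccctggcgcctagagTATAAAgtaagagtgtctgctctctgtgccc
Apoc2 (chr7:19677942-19678191, minus strand): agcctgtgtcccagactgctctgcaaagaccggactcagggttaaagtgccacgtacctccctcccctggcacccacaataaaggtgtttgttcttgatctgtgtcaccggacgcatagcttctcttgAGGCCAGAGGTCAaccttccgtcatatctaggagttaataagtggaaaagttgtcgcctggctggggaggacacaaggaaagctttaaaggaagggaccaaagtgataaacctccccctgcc

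The motifs were searched on both strands over the bases from 250 before to 50 after each start. TATAAA lay 31 bases before the start of Apoa5 and occurred in 5 of the 12 apolipoprotein windows (Apoa2, Apoa5, Apob and Apoe), against 13.6% of all 32851 windows. Both windows of Apoa5 overlap and hold the same TATAAA, which is counted in each and lies 56 bases before the other start. The matches lay 212 bases before the start in Apoa2, 96 and 100 in Apoe and 60 in Apob. The repeat with AGGNCA occurred in Apoc2, 122 bases before its start, against 0.0944% of all windows, and the stricter repeat of AGGTCA, which the wider one contains, in 0 of 12 windows against 0.0396%. TGTTTAC (forkhead) occurred in Apoa2 and Apoe, against 3.65% of all windows, and CCAAT in Apoa2, against 37.4%. CAAAGTCCA (HNF4, 0.475% of all windows), TGACGTCA (1.79%) and TGACGTGG (0.676%) occurred in 0 of the 12 windows. A match describes letters of these windows only.

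Other genes of lipoprotein metabolism were read from the same fit. In 6 lists 77 genes were tested, and 0 passed the threshold in either direction (limma, 1.89% of all genes), with 14 (18.2%) at an unadjusted p under 0.05, near the 17.5% of all genes. The diets did not overlap for 2 of 12 other apolipoprotein genes, 1 of 10 lipolysis genes and 2 of 6 high density lipoprotein genes. In the lists of assembly, receptors and transcription factors this held for 0 genes, and among all genes tested for 5.5%. Among 12 tested genes of other apolipoproteins and proteins bound to particles (median log2 change -0.25), Apon, a liver apolipoprotein gene, was at 325 ± 36.3 CPM on the Longevity diet and 559 ± 149.6 CPM on the standard diet (adjusted p = 0.0765) without overlap. Saa1, an acute phase protein of high density lipoprotein, was at 17.5 ± 15.4 CPM on the Longevity diet and 68.1 ± 38.4 CPM on the standard diet (adjusted p = 0.120).

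Among 10 tested genes of lipolysis and remodelling (median 0.35), Angptl4, an inhibitor of lipoprotein lipase, was at 222 ± 50.5 CPM on the Longevity diet and 135 ± 35.1 CPM on the standard diet (adjusted p = 0.112) without overlap. Among 6 genes of high density lipoprotein formation and sterol efflux (median 0.38), the paired sterol exporters Abcg5 and Abcg8 had log2 changes of 0.69 (adjusted p = 0.0904) and 0.68 (adjusted p = 0.0851). Abcg8 also did not overlap, with a lowest value of 184.1 CPM on the Longevity diet and a highest of 183.6 CPM on the standard diet. The 14 tested genes of particle assembly and secretion had a median of 0.11, with Apobec1, which edits Apob mRNA, at 10.7 ± 5.6 CPM on the Longevity diet and 17.1 ± 5.18 CPM on the standard diet (adjusted p = 0.231) and P4hb, a subunit of the lipid transfer complex, at 1169 ± 141 CPM on the Longevity diet and 971 ± 98.4 CPM on the standard diet (adjusted p = 0.373). The 10 tested receptors and uptake genes had a median of 0.05, with Sdc1, a heparan sulphate proteoglycan that binds particles, at 216 ± 52.0 CPM on the Longevity diet and 290.2 ± 40.8 CPM on the standard diet (adjusted p = 0.235) and the receptor Lrp1 at 395 ± 125 CPM on the Longevity diet and 634 ± 265 CPM on the standard diet (adjusted p = 0.238). The 25 transcription factors known for apolipoprotein genes had a median of 0.02. Of these Mlxipl, a glucose-responsive factor, was at 146 ± 48.4 CPM on the Longevity diet and 225 ± 52.1 CPM on the standard diet (adjusted p = 0.167) and Creb3l3, a liver factor known to drive Apoa4 in mice, at 357 ± 71.8 CPM on the Longevity diet and 251 ± 82.9 CPM on the standard diet (adjusted p = 0.234).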

How the data were processed

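RNA from liver was sequenced after poly-A selection, per the labels' protocols, which do not say whether a library kept the strand. The authors deposited 1 table with CPM (reads of a gene per 1000000 reads counted) for each mouse, to which 0.0001 had been added, as the column totals and minima show. STAR, Partek and the build mm39 are named in the submitters' processing notes without versions. The quantifier, annotation release and low-value filter are not given in the sources used here. The 0.0001 was subtracted. The step between low values gave a depth of 24.7 to 45.7 M (1000000) reads. Of values equal to fewer than 100 reads, 84.4% to 87.9% came within 0.1 of whole reads, too few for a count test. The floor of 3 reads covers counting error only. An end coordinate is the deposited stop minus 1, as for all 15 mitochondrial genes compared with GENCODE M21, whose basic transcripts gave the median length for 98.8% of genes tested.

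Values were tested as log2(CPM + 0.1) for the 13157 genes averaging 1 CPM or more, with limma 3.58.1 (trend and robust, statmod 1.5.0, R 4.3.3), diet as the only term, two-sided, with Benjamini-Hochberg adjustment over all genes at 0.05. Fold changes on this scale understate those of low genes. The diets were compared unpaired. P-values measure the spread between these mice. The script was tested on simulated data. Alternatives were other added constants, filters, scalings, weights and thresholds, a covariate, leaving out each mouse and removal of length slopes. Named genes were all 10 members, the listed pathway genes called or else the 2 with the smallest p, genes beside the clusters, and the 3 nearest in pattern. A gene that this rule names is not reported here. The members and lists were chosen with earlier results of these data known.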

Additional observations from a re-analysis of the deposited data

How the results depend on the processing

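Of 24 alternative settings 21 gave 0 apolipoprotein genes past the threshold. Array weights gave 2 and removal of the length slopes, chosen after seeing the data, gave 2 (Apoc3 and Apoc1 each time), and leaving out 1 mouse gave 0 to 1 (Apoc3 without LD_405). With array weights the adjusted p was 0.0103 for Apoc3 and 0.0447 for Apoc1. The median change of the 10 genes stayed above 0, at 0.0547 to 0.253 (0.0547 to 0.245 when 1 mouse was left out). Among all genes 249 passed, against 805 with array weights, 98 with the leading digit of the mouse number as a covariate, 435 with the length slopes removed, 541 at a threshold of 0.10 and 87 to 380 when 1 mouse was left out (87 without LD_406 and 380 without LD_405, and 96 without SD_403, 106 without LD_515, 107 without SD_500, 148 without SD_501 and 163 without SD_646). Why array weights and the covariate moved the count was not tested. The split was 87 higher and 162 lower, and 151 and 138 with median-of-ratios scaling, 151 and 139 with trimmed-mean scaling and 151 and 148 with quantile normalization, which moved the median of all genes from -0.11 to -0.01, -0.01 and 0.00.

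Signs turned for 4 genes that passed no threshold, Apoa2, Apob, Apoc2 and Apoe. With median-of-ratios, trimmed-mean and quantile scaling, Apoa2 became 0.081, 0.081 and 0.26 and Apob 0.097, 0.097 and 0.065. Without the 100 most abundant genes or the 10 apolipoproteins in the denominator, Apob became 0.00016 and 0.0097. With array weights Apob became 0.11 and Apoe -0.11, and with the length slopes removed 0.22 and -0.00070. When 1 mouse was left out, Apoa2 ran from -0.25 to 0.11, Apob from -0.11 to 0.16, Apoc2 from -0.040 to 0.56 and Apoe from -0.11 to 0.20. No paired analysis was possible because the diets share no mouse number. With 5 mice per diet the 95% intervals of Apoa4 and Apoc2 were the widest of the 10.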

Other observations

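For the 3 apolipoprotein genes with the smallest p, the genes with the most similar pattern over the 10 mice were ranked by Pearson r of log2(CPM + 0.1) among all genes tested. The r describes 10 libraries of unequal depth that are scaled to the same total, and it carries no test. For Apoc3 they were the non-coding gene 2310001H17Rik (r = 0.95), Ndufa12 (0.95) and Gmfg (0.94). For Apoa4 they were the non-coding gene Gm27252 (0.92), Fabp5 (0.90) and Flot1 (0.86). For Apoa1 they were Erc2 (0.95), Mpdu1 (0.94) and Nenf (0.93). With the mean of each diet removed, the genes most similar to Apoc3 were Dnase2a, Fcf1 and Mrps21 (r = 0.98 each), those to Apoa4 were Frg1 (0.97), Fabp5 (0.92) and Prmt9 (0.92), and those to Apoa1 were Edem2 (0.98), Psmg3 (0.96) and Nudt2 (0.94). Fabp5 was thus among the 3 nearest to Apoa4 with and without the diet means, and none of these genes passed the threshold for a diet difference.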
